A study of Caenorhabditis elegans with 2 samples.

Results

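The 10 genes cbd-1, cpg-1, cpg-2, cpg-3, egg-1, egg-2, egg-3, chs-1, perm-2 and perm-4 encode proteins that the Caenorhabditis elegans oocyte uses to build its eggshell, and they are described here by where tagged MES-4 was recovered on them. They make up 10 of 19973 protein-coding nuclear genes. The genes were chosen by function with their peaks in these same lists already known, so the measured values that chose them are the signal ranks and summit positions given below. Those values are therefore a description, with no test. A summit was counted for a gene when it lay in the annotated gene or within 500 bp of either end. Coordinates are 1-based on the ce11 build (WBcel235).

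The worm eggshell is built by the oocyte and the newly fertilized egg in layers. The outermost vitelline layer contains CBD-1, PERM-2 and PERM-4, the layer beneath it is chitin made by the chitin synthase CHS-1, and the next is rich in the chondroitin proteoglycans CPG-1 and CPG-2. EGG-1 and EGG-2 are oocyte surface proteins with low-density lipoprotein receptor repeats that are needed for fertilization, and EGG-3 is a protein of the oocyte cortex that acts with CHS-1 during egg activation. MES-4 is a histone H3 methyltransferase of the germ line that places the lysine mark associated with transcribed genes and is needed to pass on a memory of germline expression. The genes described here are known for expression in the adult germ line, where oocytes form.

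The samples were whole hermaphrodite young adults of strain RW10325, taken 63 h after synchronization by L1 starvation following bleaching. The strain stably expresses MES-4 with a GFP-FLAG tag at its C terminus, and chromatin sheared by sonication was immunoprecipitated with an anti-GFP antibody. There was 1 group of 2 biological replicates, and the labels give no further detail on separate cultures. Both replicates came from 1 tagged line, and the labels name no promoter for the fusion. Neither a control library nor untagged animals were analysed here, so a peak below means enrichment as the authors called it. Germline and somatic nuclei were not separated, so fewer nuclei carrying MES-4 at a gene and less MES-4 in each nucleus cannot be told apart. The lists hold no expression value against which to check the tissue.

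The deposited values were 4 lists of peaks. The reproducible list held 440 nuclear peaks, the pooled relaxed list 12008, and the relaxed lists of replicates 1 and 2 held 15372 and 14947. The relaxed lists include background by design. Each peak has a summit, a signal value from the authors' peak caller and a −log10 q value. The median signal was 35.1 in the pooled list, 19.6 in replicate 1 and 18.6 in replicate 2, so signals were not compared across lists and the rank within a list was used, with rank 1 the strongest nuclear peak. Read depth is unknown, and nearly all peaks had 1 fixed width of 440 bp, or 430 bp in replicate 2. Neither summit position nor peak width therefore measures the breadth of a domain. The 440 reproducible nuclear peaks were the 440 strongest of the pooled list.

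The strongest peaks at the eggshell genes ranked from 197 at cbd-1 to 7675 at perm-2 in the pooled list, and none of the 100 strongest nuclear peaks lay at one of them. In the reproducible list, 2 of the 10 genes had a summit, cbd-1 and cpg-1, where 2.18% of all genes did. Among the 1000 strongest pooled peaks the count was 4 genes, with chs-1 and egg-1 added, against a background of 5.29%. The same 4 genes had a pooled peak with the authors' q at or under 0.05, a limit that 4.66% of all genes passed. Anywhere in the pooled list, 9 genes had a summit and perm-4 had none, against 40.0% of all genes. In replicate 1 all 10 genes had a summit and in replicate 2 the count was 8, against backgrounds of 46.5% and 45.6%. The 8 genes with a summit in both replicates, all but perm-2 and perm-4, compare with a background of 31.7%. The relaxed lists reach so many genes that a weak summit alone says little about an eggshell gene. All 10 genes are autosomal, and the autosomal backgrounds were 2.09% for the reproducible list, 5.48% for the 1000 strongest pooled peaks and 40.9% for the pooled list. The median length of the members, 2045.5 bp, was close to the 2027 bp of all genes. Among genes within the members' length range of 1359 to 5062 bp, the shares were 2.02%, 5.18% and 39.4%.

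**Figure D1:**
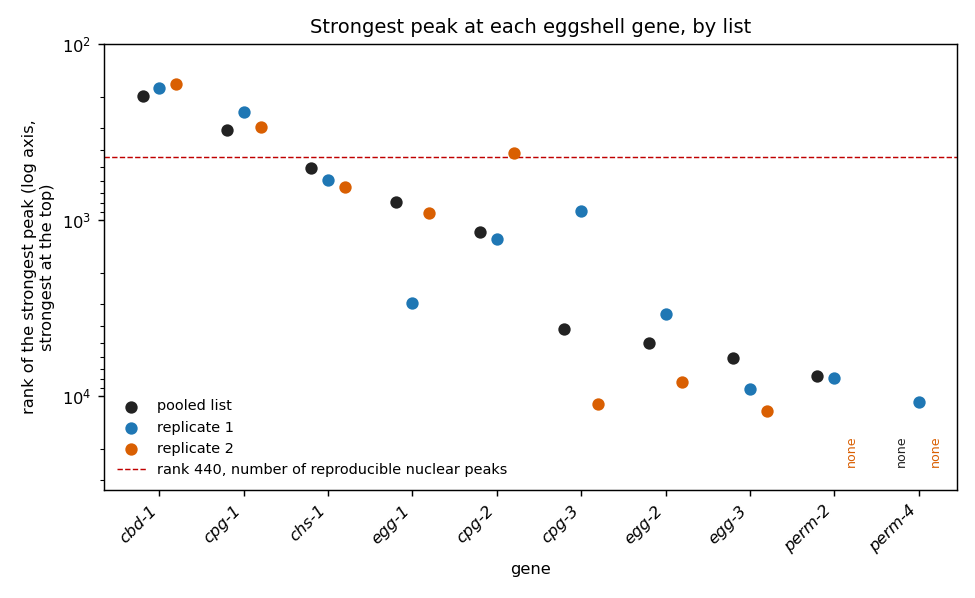
Rank of the strongest peak at each eggshell gene (vertical axis, logarithmic, strongest at the top) in the pooled list and in each replicate, with 1 point per gene and list and the word none where no summit lay within the window. The dashed line marks rank 440, the number of reproducible nuclear peaks. The genes cbd-1 and cpg-1 lie above the line in all 3 lists, and cpg-3 shows the widest gap between replicates.

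Of the vitelline layer genes, cbd-1 had the strongest peak of all 10. It encodes a protein with chitin-binding domains that scaffolds the vitelline layer. The gene (WBGene00010351, chrIV:11372991-11377627, plus strand, 4637 bp) had 6 pooled summits. Its strongest peak, at chrIV:11377369-11377808, had a signal of 102.7 at rank 197 in the pooled list, 56.8 at rank 178 in replicate 1 and 55.3 at rank 168 in replicate 2. The ranks of cbd-1 thus lay close together, with a ratio of 1.06 between the replicates. The pooled summit fell in the 3' UTR, 38 bp before the annotated 3' end, and its −log10 q of 2.18 was the highest value the pooled list holds, shared by 361 peaks. The replicates placed it differently, with a shift from the pooled summit of 1 bp in replicate 2 and of 176 bp in replicate 1, where the summit lay 138 bp past the 3' end. A weaker pooled peak at rank 1018 overlapped the strongest one, with a summit 162 bp past the end and 24 bp from that of replicate 1. The ratio of ranks thus pairs overlapping replicate peaks whose summits lie nearest to different pooled summits. The other pooled summits of cbd-1 lay 274 bp upstream at rank 3479 and in coding exons at ranks 1240, 2269 and 6909. The enrichment at cbd-1 was therefore strongest at its end and weaker over its start and body. The bases after the annotated 3' end of cbd-1 are shown up to the end of the reproducible peak because the summit of replicate 1 fell among them. They span chrIV:11377628-11377808 on the plus strand of ce11, are from the RefSeq genome, and have the 11 bases centred on that summit in capitals.
cbd-1 downstream: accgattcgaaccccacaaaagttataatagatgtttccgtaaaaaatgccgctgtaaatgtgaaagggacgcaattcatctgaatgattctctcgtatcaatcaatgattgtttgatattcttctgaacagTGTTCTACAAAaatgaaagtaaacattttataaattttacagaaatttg

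The other vitelline layer genes had weak peaks or none. The neighbours perm-2 and perm-4 encode secreted proteins needed for the permeability barrier, and they are transcribed away from each other with 1682 bp between them. At perm-2 (WBGene00016636, chrIV:1126790-1128865, plus strand) the pooled summit had a signal of 32.7 at rank 7675, and replicate 1 had 19.5 at rank 7899. Replicate 2 had no summit at perm-2. The pooled summit and this replicate 1 summit lay in a coding exon, 36 bp and 52 bp from the 5' end. Replicate 1 held a further, weaker summit in a coding exon at rank 9541, 1263 bp after the 5' end. At perm-4 (WBGene00016638, chrIV:1121494-1125107, minus strand) the lists held 1 summit, in a coding exon at rank 10831 of replicate 1 with a signal of 17.6. Enrichment at perm-2 and perm-4 was thus not found in both replicates, unlike that at cbd-1. The difference between cbd-1 and the perm genes was not tested.

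Among the oocyte surface proteins, egg-1 and egg-2 encode close relatives that act in fertilization, and their peaks differed in rank and place. At egg-1 (WBGene00015083, chrIII:5728180-5730159, plus strand) the strongest pooled peak, chrIII:5727792-5728231, had a summit 168 bp upstream of the gene with a signal of 62.0, rank 789 and −log10 q of 1.48. Replicate 1 had its summit at the same base with a signal of 24.7 at rank 3296, and replicate 2 had one 12 bp away with 32.7 at rank 907. The upstream peak of egg-1 was thus among the 1000 strongest in replicate 2 and in the pooled list but not in replicate 1. A further summit in an intron ranked 2485 in the pooled list, 2941 in replicate 1 and 7777 in replicate 2. In replicate 1 that intronic peak was the strongest at egg-1. The 299 bases centred on the upstream summit of egg-1, chrIII:5727863-5728161 on the plus strand of ce11 from RefSeq, are shown because they are the strongest enriched stretch of the surface protein genes. Capitals mark an 8-base match described further on.
egg-1 upstream: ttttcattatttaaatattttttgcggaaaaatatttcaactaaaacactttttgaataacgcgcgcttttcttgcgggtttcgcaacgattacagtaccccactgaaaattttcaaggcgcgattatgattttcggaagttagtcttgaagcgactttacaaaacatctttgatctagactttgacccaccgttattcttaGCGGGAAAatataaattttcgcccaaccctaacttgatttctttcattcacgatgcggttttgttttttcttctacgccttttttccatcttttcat

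At egg-2 (WBGene00019811, chrIII:7058527-7060583, minus strand) no upstream peak was found in the pooled list or in replicate 1. Its single pooled summit lay in a coding exon 925 bp from the 5' end, with a signal of 36.9 at rank 4988. Replicate 1 had a signal of 24.4 at rank 3408 with a summit 162 bp from the pooled one, and replicate 2 had 18.0 at rank 8257 with a shift of 7 bp. Replicate 2 also held an upstream summit of egg-2, 212 bp before the gene, at rank 12254. The strongest peak of egg-2 thus had a weaker rank than that of egg-1 in the pooled list and in both replicates. Of 2951 windows of 30 bases within egg-1 or 500 bp of it, 0 also occurred within egg-2 or 500 bp of it on either strand. For egg-3, which encodes a phosphatase-like protein without known catalytic activity (WBGene00009701, chrII:10882408-10884441, minus strand), the pooled summit lay 412 bp after the 5' end, within an intron. Its signal was 35.0 at rank 6040, with 18.7 at rank 9126 in replicate 1 and 15.9 at rank 12184 in replicate 2. The replicates put the summit of egg-3 within 9 bp of the pooled one, in spite of the low ranks.

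The proteoglycan gene cpg-1 had a strong peak on either side. CPG-1 and CPG-2 carry chondroitin chains and bind chitin, and they act together in the inner eggshell. At cpg-1 (WBGene00000465, chrIII:4489359-4491392, plus strand, 2034 bp) the upstream peak, chrIII:4488924-4489363, had its summit 215 bp before the gene. Its signal was 88.0 at rank 306 in the pooled list, 49.5 at rank 276 in replicate 1 and 32.6 at rank 930 in replicate 2. The second peak, chrIII:4491230-4491669, had its summit 58 bp past the 3' end, with 87.8 at rank 308 in the pooled list, 51.9 at rank 242 in replicate 1 and 46.6 at rank 297 in replicate 2. The upstream peak was thus about as strong as the downstream one in the pooled list and in replicate 1, and lower in rank in replicate 2. For the upstream peak both replicates had their summit within 15 bp of the pooled one. For the downstream peak the shift was 4 bp in replicate 1 and 162 bp in replicate 2, whose summit fell in the 3' UTR of cpg-1. No pooled summit lay within the body of cpg-1, and a coding exon of it held 1 summit, at rank 3872 of replicate 1. With both peaks in the reproducible list, cpg-1 was the 1 eggshell gene with at least 2 reproducible summits, a state reached by 0.155% of all genes.

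The downstream peak of cpg-1 lay between convergent genes. The 3' end of atf-7 (chrIII:4491627-4499045, minus strand), which encodes a basic leucine zipper transcription factor, is 234 bp from that of cpg-1. The peak reached into the end of each gene, so its enrichment cannot be assigned to cpg-1 or atf-7. Replicate 1 held another summit in the 3' UTR of atf-7, 263 bp past the end of cpg-1, at rank 763. The 2 stretches printed here hold the reproducible summits of cpg-1, on the plus strand of ce11 from RefSeq, with 8-base matches in capitals. The first is chrIII:4488995-4489293, 299 bases centred on the upstream summit, and the second is chrIII:4491393-4491626, the whole gap between cpg-1 and atf-7 with the summit at its base 58. Their GC contents were 38.1% and 35.5%, where the median for 299 bases around all reproducible summits was 42.1%. For the 150 reproducible summits away from tRNA, snRNA and snoRNA genes it was 39.8%. The 300 bases before all protein-coding gene starts had a median of 33.3%, below the upstream stretch. The second stretch is 234 bases long, and the 299 bases centred on its summit had 32.8%.
cpg-1 upstream: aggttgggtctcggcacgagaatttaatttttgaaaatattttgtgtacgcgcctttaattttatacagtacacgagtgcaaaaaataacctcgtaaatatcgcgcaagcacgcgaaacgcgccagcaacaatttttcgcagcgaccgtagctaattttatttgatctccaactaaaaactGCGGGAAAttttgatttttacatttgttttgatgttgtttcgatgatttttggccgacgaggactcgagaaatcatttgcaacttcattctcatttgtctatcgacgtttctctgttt
cpg-1 to atf-7: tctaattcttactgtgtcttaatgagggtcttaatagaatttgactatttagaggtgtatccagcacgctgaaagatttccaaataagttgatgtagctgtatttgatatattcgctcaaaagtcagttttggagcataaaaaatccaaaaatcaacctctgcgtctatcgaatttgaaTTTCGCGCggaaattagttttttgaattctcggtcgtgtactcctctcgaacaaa

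At cpg-2 (WBGene00015102, chrIII:7102092-7103990, minus strand, 1899 bp) the strongest pooled peak, chrIII:7101571-7102010, had a signal of 54.9 at rank 1174 and a −log10 q of 0.948. Replicate 1 had 31.1 at rank 1281, and replicate 2 had 40.9 at rank 417. The rank of cpg-2 was thus higher in replicate 2, where the peak stood at the highest −log10 q of that list, 2.29. The pooled summit lay 301 bp past the 3' end of cpg-2, within a coding exon of the convergent gene ZK418.11, whose 3' end is 42 bp away. In replicate 1 the summit fell in the 3' UTR of ZK418.11. Within cpg-2 itself, pooled summits lay in coding exons at ranks 4845 and 9247. The stronger signal counted here for cpg-2 thus lies in the neighbouring gene.

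Of the proteoglycan genes, cpg-3 showed the largest difference between replicates among the 8 eggshell genes with a summit in both. The gene (WBGene00011063, chromosome I, 7244937 to 7246295, plus strand, 1359 bp) had a strongest peak of signal 38.9 and rank 4153 in the pooled list, 34.4 and rank 884 in replicate 1, and 16.4 and rank 11071 in replicate 2. The ratio of ranks was 12.5. The replicates differed in place as well, with the replicate 1 summit 33 bp before the annotated 3' end and the replicate 2 summit 391 bp before it, in a coding exon. The pooled and replicate 1 summits lay in an annotated intron of cpg-3. The pooled one was 156 bp past the 3' UTR that joins the coding end of cpg-3. Both lay in a coding exon of the neighbour R06C7.6, which is on the opposite strand and overlaps the end of cpg-3 by 221 bp. Of the 30-base windows of cpg-3 and its flanks, 7.17% occurred elsewhere in the genome, where the other 9 genes had at most 0.865%. The part of these repeated stretches in the replicate difference was not tested.

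The chitin synthase gene chs-1 stood just outside the reproducible list. It makes the polymer of the middle eggshell layer. At chs-1 (WBGene00000496, chromosome I, 7554855 to 7559916, plus strand, 5062 bp) the strongest peak had a signal of 73.6 at rank 506 in the pooled list, 38.7 at rank 590 in replicate 1 and 36.2 at rank 645 in replicate 2. The 3 ranks of chs-1 lay close together, with a replicate ratio of 1.09 and summits within 36 bp of the pooled one. The pooled −log10 q was 2.07. The pooled summit lay 56 bp before the annotated end of the gene, but 231 bp past the 3' UTR that joins its coding end, since the last annotated stretch belongs to a transcript with a spliced tail. At that point it was within the first coding exon of T25G3.3, a gene on the same strand that overlaps chs-1 by 78 bp. Enrichment there cannot be assigned to the end of chs-1 or the start of T25G3.3. Over the coding exons of chs-1, the pooled list held weaker summits at ranks 4671, 6232, 9771 and 11801, and replicate 2 held one at rank 1163. Across the members, the weakest reproducible peak was the cpg-1 downstream peak at signal 87.8, the strongest peak left out was that of chs-1 at 73.6, and the lowest nuclear signal in the reproducible list was 77.3.

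**Figure D2:**
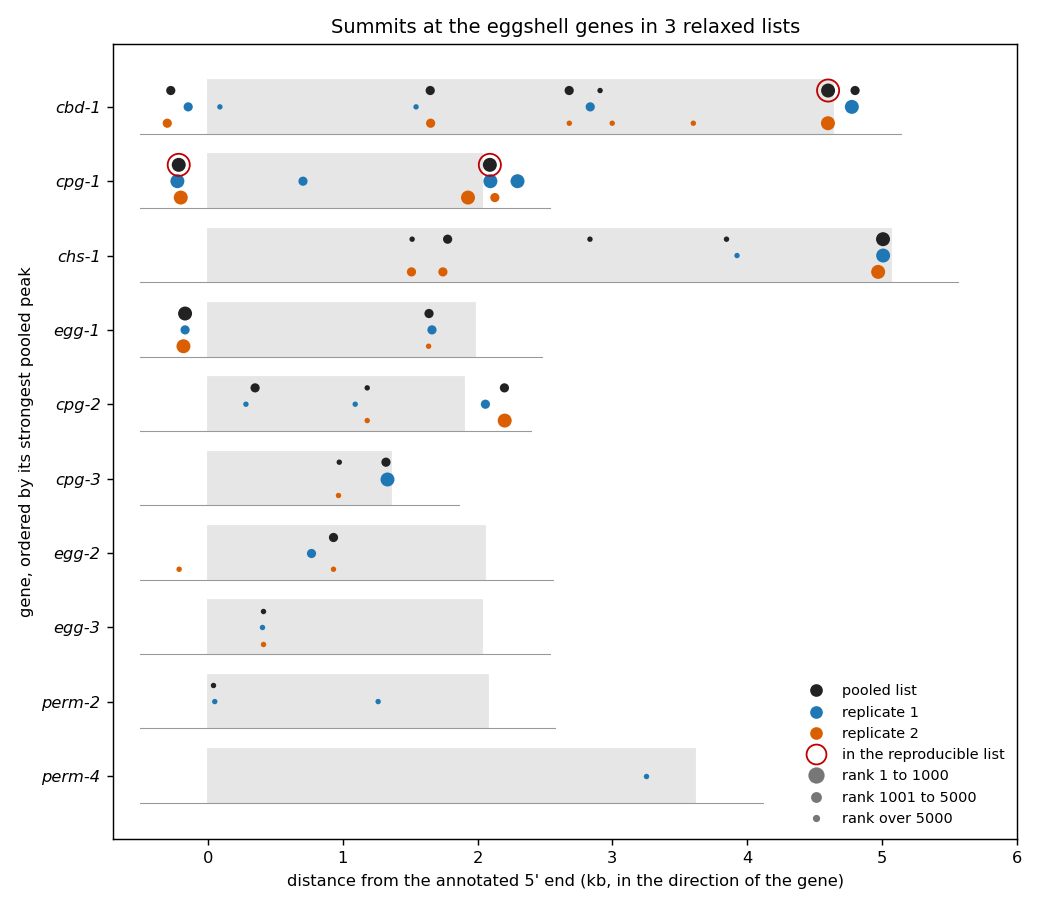
Positions of all summits at the 10 eggshell genes in kb from the annotated 5' end, in the direction of the gene (horizontal axis), with genes in rows ordered by their strongest pooled peak. Grey boxes are the annotated gene, thin lines the window with 500 bp on each side, point colours the list, point sizes the rank class, and red circles the reproducible peaks. The large points lie near the ends of genes and the small ones mostly within them.

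The strongest summits mostly lay near gene ends, as they did at other genes with strong peaks. The 5 eggshell genes with the best pooled ranks, cbd-1, cpg-1, chs-1, egg-1 and cpg-2, had their strongest summit from 56 bp before to 301 bp past the annotated 3' end or 168 to 215 bp upstream of the 5' end. All 5 strongest summits were outside the gene or within 100 bp of an end, against 58.0% of the 1594 genes with a pooled summit of rank 1500 or better, and both limits were set after the data were seen. Of the 23 pooled summits at members, 12 lay in coding exons, 4 in introns, 3 upstream, 3 downstream and 1 in a 3' UTR. Over all 13093 pairs of a protein-coding gene and a pooled summit, 30.7% were in coding exons, 27.6% in introns, 13.8% upstream, 20.2% downstream and 5.67% in a 3' UTR. Coding exons thus held 52.2% of the members' summits, and this difference was not tested. That share counts summits and not genes. The longest members weigh most in it, with 6 of the summits at cbd-1 and 5 at chs-1. The strongest pooled summit was nearer the 3' than the 5' end in 4 of 9 genes, cbd-1, cpg-2, cpg-3 and chs-1, against 55.4% of all genes with a pooled summit. The share of eggshell genes nearer the 3' end was thus not above the background in the pooled list. It rests on a near tie at cpg-1, whose upstream and downstream peaks ranked 306 and 308. In the replicates the downstream peak of cpg-1 was the stronger, at rank 242 against 276 and 297 against 930. In replicate 1 the strongest summit of egg-1 was also nearer the 3' end. No background was taken for single replicates. The strongest summit lay in a neighbouring gene for cpg-2 in the pooled list and both replicates, and for cpg-3 and chs-1 in the pooled list and replicate 1 but not in replicate 2. Of the 23 pooled peaks, 17 overlapped a peak of both replicates, 5 of 1 replicate and 1 of neither, and all 5 peaks ranked 1000 or better overlapped one in both. The same count was not made over all pooled peaks, so it says nothing particular to the eggshell genes. The pool was itself made from both replicates. A replicate peak could also count for 2 pooled ones, as the replicate 1 peak at rank 178 did for the cbd-1 peaks at ranks 197 and 1018.

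No peak at an eggshell gene lay beside a small RNA gene. Of the 68 summits at members over the 4 lists, 0 were within 220 bp of a tRNA, snRNA or snoRNA gene, and the nearest such gene was 18.2 kb away. In the reproducible list as a whole, 290 of 440 nuclear peaks, or 65.9%, lay within that distance, but the members hold 3 of those peaks. The other member summits are from the relaxed lists, where the share was 6.09% in the pooled list, 4.72% in replicate 1 and 4.64% in replicate 2. Beside those low shares, the count of 0 among the other member summits is not particular to the eggshell genes. The reproducible peaks of cbd-1 and cpg-1 thus belong to the 150 that did not. In the reproducible list, the genes closest in strength above cbd-1 were rpac-19 at rank 193, T09B4.8 at rank 194 and fli-1 at rank 195, and those below were ril-2 at rank 198 and R119.3 and pqn-59, which share the peak at rank 199. Likeness here is closeness of rank in 1 list and carries nothing on function.

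The other genes of the eggshell and oocyte pathways were mostly absent from the strongest peaks, as most genes were, and mostly present in the pooled list. Of 17 annotated genes for the rest of the eggshell and permeability barrier, 0 had a reproducible summit, 11 a pooled one and 10 one in both replicates. For 9 chondroitin synthesis genes the counts were 0, 7 and 5, and for 23 genes of egg activation and oocyte maturation they were 1, 18 and 20. Together, 1 of 49 such genes had one of the 1000 strongest pooled peaks, or 2.04%, against 5.29% of all genes. The same gene was the only 1 with a reproducible summit, against 2.18%. A pooled summit was found at 36, or 73.5%, against 40.0%, and a summit in both replicates at 35, or 71.4%, against 31.7%. These genes reach 26804 bp in length, and of the 31 within the members' length range 24 had a pooled summit, where 39.4% of all genes of that range did. At 1500 peaks the other pathway genes reached 20.4% and the eggshell genes 50%, with all genes at 7.98%. At 8000 peaks the shares were 59.2%, 90% and 31.1%. No test was made of these shares, because the 10 genes were picked with their peaks known. The 1 pathway gene with a reproducible peak was oma-1, which encodes a zinc-finger protein of oocyte maturation. Its peak, chrIV:8890952-8891391, had a summit 173 bp past the 3' end, with a signal of 89.6 at rank 296 in the pooled list, 43.7 at rank 400 in replicate 1 and 40.4 at rank 431 in replicate 2. The oma-1 peak thus resembled that of cbd-1 in lying at the 3' end and ranking high in both replicates.

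**Figure D3:**
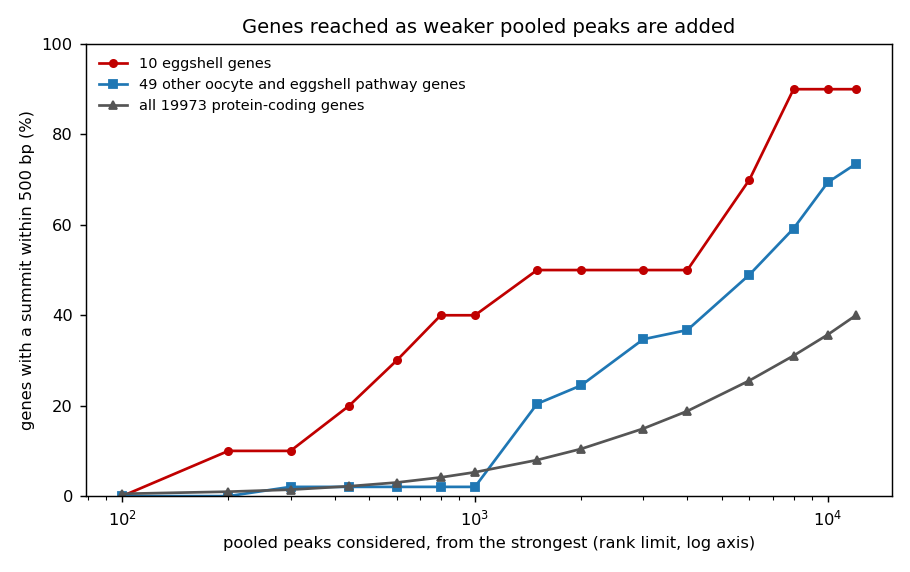
Share of genes (vertical axis, percent) with a summit in the gene or within 500 bp as weaker pooled peaks are added (horizontal axis, number of strongest pooled peaks considered, logarithmic). Lines stand for the 10 eggshell genes, 49 other oocyte and eggshell pathway genes and all 19973 protein-coding genes. The eggshell genes reach 40% at 1000 peaks, where the other pathway genes are at 2.04% and all genes at 5.29%.

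The bases upstream of the stronger members shared a short sequence. The 8-letter motifs TTTCCCGC and TTTCGCGC, read on both strands as GCGGGAAA and GCGCGAAA, are forms known to be bound by proteins of the E2F family, of which worms have EFL-1 with a known role in the germ line. Within 300 bp upstream, 5 of the 10 eggshell genes held a match, namely cbd-1, cpg-1, cpg-2, egg-1 and chs-1, where 2.88% of all genes did (576 of 19973). A search within 500 bp matched 4.67% of all genes, and one with the added forms TTTGGCGC and TTTGCCGC within 300 bp matched 5.00%. Neither added another member, and because both contain the first search they had to keep the same 5 genes. These were the 5 genes with the best pooled ranks, 1174 or better, and the other members ranked 4153 or weaker or had no pooled summit. The gap in rank depends on peaks in neighbouring genes. Without summits inside another protein-coding gene, chs-1 ranked 4671 and cpg-2 4845, close to egg-2 at 4988. The letters were chosen after these sequences and ranks had been seen, so the counts describe and test nothing. In 4 of the 5 genes the match was GCGGGAAA in the direction of the gene, at 168 bp before the start of cbd-1, 175 bp before cpg-1, 226 bp before cpg-2 and 107 bp before egg-1. The gene chs-1 had 2 overlapping matches of TTTCGCGC on opposite strands, 33 and 37 bp before its start. The flanks of GCGGGAAA are not identical, but those after it are mostly A and T in all 4 genes. On that side cpg-2 and egg-1 share most letters. The 30 bases around each GCGGGAAA are printed in the direction of the gene from the RefSeq genome of ce11, with the shared letters in capitals. They lie at chrIV:11372804-11372833 on the plus strand for cbd-1, chrIII:4489165-4489194 on the plus strand for cpg-1, chrIII:7104206-7104235 on the minus strand for cpg-2 and chrIII:5728054-5728083 on the plus strand for egg-1.
cbd-1 site: tttaggctcgaGCGGGAAAttttttggatt
cpg-1 site: aactaaaaactGCGGGAAAttttgattttt
cpg-2 site: tttgacctccgGCGGGAAAattcaaatttt
egg-1 site: cgttattcttaGCGGGAAAatataaatttt

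Matches were rare at MES-4 peaks at large. In 299-base windows centred on summits, 10 of 440 reproducible peaks, or 2.27%, held a match, as did 7 of the 150 away from small RNA genes (4.67%) and 3.20% of 12008 pooled peaks. At the members, 4 of 23 pooled summits held one. The match lay 32 bp from the upstream summit of cpg-1 and 53 bp from that of egg-1. At cbd-1, cpg-2 and chs-1 the strongest summit was at the other end of the gene. The upstream summits of cpg-1 and egg-1 were the strongest of their genes in the pooled list, at cpg-1 by a near tie. In both replicates the downstream peak of cpg-1 was the stronger. The intronic peak of egg-1 was the stronger in replicate 1 but not in replicate 2. The gap between cpg-1 and atf-7 also held TTTCGCGC, 122 bp from the summit. Of the 571 genes outside the 10 with an upstream match, 7.53% had one of the 1000 strongest pooled peaks and 56.2% had a pooled peak, where genes without a match had 5.20% and 39.5%. A match is a run of letters and was not tested as a binding site.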

How the data were processed

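Chromatin immunoprecipitation with sequencing was done on 2 replicates. Per the deposited file descriptions, the authors made relaxed peak lists, background included, from each replicate and from the pool against a control, and kept reproducible peaks by the irreproducible discovery rate. No source used here gives the aligner, peak caller, versions or that threshold. The signal value of each peak and the −log10 q value were used as deposited by the authors. Depth is unknown, since the lists give no read counts.

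Nuclear peaks of the ce11 lists were ranked by signal, and mitochondrial peaks were left out. Summits were assigned to protein-coding genes of Ensembl release 115 with 500 bp on each side, and bases came from the RefSeq genome of the same assembly. No peak ended beyond its chromosome there. Peaks of different lists were matched at an overlap of at least 1 bp. Python 3.11.15, numpy 2.4.6, pandas 2.3.3 and matplotlib 3.10.9 were used. The assignment was tested on simulated data with summits planted in 200 of 19973 genes, of which 200 were recovered. The planted summits lay inside the windows searched. The test therefore checks the counting and not which of several nearby genes a summit belongs to.

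The members and the pathway lists were chosen with earlier results of these data known, and 3 listed genes, uap-1, cpg-5 and cpg-6, were not matched by name. Named genes are the 10 members, listed genes with a reproducible summit, genes that overlap a member's reproducible peak, and the 3 genes next above and next below the strongest member in reproducible rank. The neighbours ZK418.11, R06C7.6 and T25G3.3 were named after their values were seen. No test was run, so values are set beside the share of all genes called by the same rule. Windows, stricter lists, single replicates and small RNA genes were tried as alternatives. The length-matched backgrounds, the shares of all summits by place and small RNA gene, the removal of summits inside another gene and the motif letters were added after the data were seen. Lists on the ce10 build were not used.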

Additional observations from a re-analysis of the deposited data

How the results depend on the processing

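The count of eggshell genes with a reproducible summit, 2 in the report, was 1 in the gene body alone (1.01% of all genes), 1 among peaks above the median signal (1.08%) and 4 in the 1000 strongest pooled peaks (5.29%). A single replicate has no reproducible list, so only its strongest peaks were counted. The count was then 2 from replicate 1 alone (2.29%) and 3, with cpg-2 added, from replicate 2 alone (2.26%). The count with a pooled summit, 9 in the report, ranged from 7 among peaks above the median signal, against 25.6% of all genes, to 10 in replicate 1 alone, against 46.5%. The count in both replicates, 8 in the report, was 5 among peaks above the median of each list, against 17.5%, and 7 to 9 otherwise. It was 8 in the gene body alone, against 21.5%, and 9 with 1000 bp on each side, against 37.5%. The 7 came without summits inside another gene, for which no share of all genes was taken. Without summits inside another gene, a setting chosen after seeing the data, the best pooled rank of chs-1 went from 506 to 4671, of cpg-2 from 1174 to 4845 and of cpg-3 from 4153 to 11255. In the gene body alone egg-1 went from 789 to 2485 and cpg-2 from 1174 to 4845, while cpg-1 had no pooled summit. Ranks from single replicates, given in the report, often differ from the pooled rank. They come from longer lists, so such a difference cannot be read as a change. No paired analysis was possible because the series has 1 group. Depth is unknown, 2 replicates give no usable error for a rank, and the fixed peak width limits position to the summit.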
